A study of Mus musculus with 9 samples.

Results

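The genes described here are Cebpe, which encodes C/EBP epsilon, and 8 eosinophil genes chosen by name: the surface receptor genes Siglecf, Ccr3 and Il5ra, and the granule protein genes Prg2, Epx, Ear1, Ear2 and Ear6. The names were chosen with earlier results of these data known. Of these 9 names, 7 had a row among the 41096 genes of the table, and Ear1 and Ear2 had none. All 7 had at least 1 read in some sample, and 4 of them (Cebpe, Ccr3, Siglecf and Il5ra) reached the expression minimum for the test across genes (1 FPKM in at least 4 samples), which 11193 genes passed. Those 4 stood above 1 FPKM (fragments per kilobase of gene per 1e6 reads, a level that can be compared between genes of different length) in each of the 9 samples.

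Eosinophils are granulocytes of type 2 immunity and parasite defence. They form in the bone marrow. There the transcription factor GATA1 commits progenitors to the eosinophil lineage, and C/EBP epsilon directs the last steps of granulocyte maturation. Interleukin 5 drives the output of eosinophils. Their granule proteins are made mostly in marrow precursors, whereas mature cells in tissue carry the chemokine receptor CCR3, the sialic acid binding receptor Siglec-F and the interleukin 5 receptor. Resting and inflamed peritoneal fluid of mice holds eosinophils beside macrophages, lymphocytes and mast cells.

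The samples were 4 diabetic and 5 control preparations of peritoneal exudate cells, all from APOE-/- mice, which lack apolipoprotein E. From 8 weeks of age the diabetic group was injected into the peritoneum with streptozotocin (40 mg/kg, once a day for 5 days), which destroys the insulin-producing cells of the pancreas, and the control group was given citrate buffer in the same way. Western diet was then fed to all for 8 weeks. At its end both groups were given the irritant thioglycollate (1.5 mL of a 3% solution), to which leukocytes enter the cavity, and the cells were rinsed out 3 days later with 10 mL of phosphate-buffered saline. No wild-type or unstimulated samples were analysed here. The labels mention no sorting of cells and do not say whether a sample was 1 mouse or several, so each p-value refers to the spread seen among these 9 libraries. Libraries held 14156421 to 16169060 reads in genes.

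The labels name the cells peritoneal macrophages, and the macrophage genes Adgre1 (185 to 310 FPKM in diabetic, 256 to 310 FPKM in control samples) and Cd68 (774 to 1437 FPKM in diabetic, 891 to 1442 FPKM in control samples) were high in both groups. Eosinophil genes were a small part of this RNA: the summed level of the 6 measured eosinophil genes, Cebpe left out, was 8.56 to 17.8 FPKM in diabetic and 15.2 to 53.2 FPKM in control samples. In RNA of mixed cells, fewer eosinophils and less of these RNAs per cell cannot be told apart.

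Cebpe, Ccr3 and Siglecf were lower in diabetic than in control samples by 2.85 to 3.68 times in group means, with adjusted p-values of 0.052 to 0.090 that missed the 0.05 threshold. Il5ra averaged 3.35 FPKM in diabetic and 3.80 FPKM in control samples. The granule genes Prg2, Epx and Ear6 were at or near 0 in most samples. None of the 4 tested genes passed at an adjusted p below 0.05, where 4.76% of all tested genes did (2.08% lower and 2.68% higher in diabetic samples). Of the 4, all had a negative log2 fold change, against 52.3% of tested genes, and 3 were at -1 or below, against 0.536%. An unadjusted p below 0.05 in the lower direction was found for 3 of the 4, against 11.3% of tested genes. The genes were chosen with earlier results of these data known, so these counts are description only. The median log2 fold change of the 4 was -1.29, and that of all tested genes was -0.013. Fold changes are diabetic over control on the log2(FPKM + 1) scale.

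Cebpe, the transcription factor of the set, lies on chromosome 14 (51142504 to 51144315, minus strand, MGP_C57BL6NJ_G0021724, positions as the table gives them). It stood at 10.2, 5.09, 5.31 and 10.6 FPKM in diabetic 1 to 4, against 32.9, 13.4, 40.1, 12.9 and 44.2 FPKM in control 1 to 5. Every diabetic sample lay below every control sample, an order that 4.6% of tested genes showed (4.82% showed the opposite order and 9.42% either). Within the control group, samples 1, 3 and 5 were high and samples 2 and 4 were close to the diabetic range. The means were 7.80 ± 3.00 FPKM in diabetic (SD, n = 4) and 28.7 ± 14.7 FPKM in control samples (SD, n = 5). The log2 fold change was -1.65 (SE 0.41, limma adjusted p = 0.052), and 0.0893% of tested genes had a value that low or lower. An exact permutation test, two-sided over 126 arrangements of the group labels, gave p = 0.0238, where the smallest p it allows is 0.00794. This p is not adjusted for the choice of genes, which was made with earlier results known. The same limit holds for the permutation p-values of the other members. The call depended on single libraries: Cebpe passed without control 2 (log2 fold change -1.87, adjusted p = 0.040) and without control 4 (-1.88, adjusted p = 0.041), the lowest control samples, and missed when any other sample was left out.

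**Figure D1:**
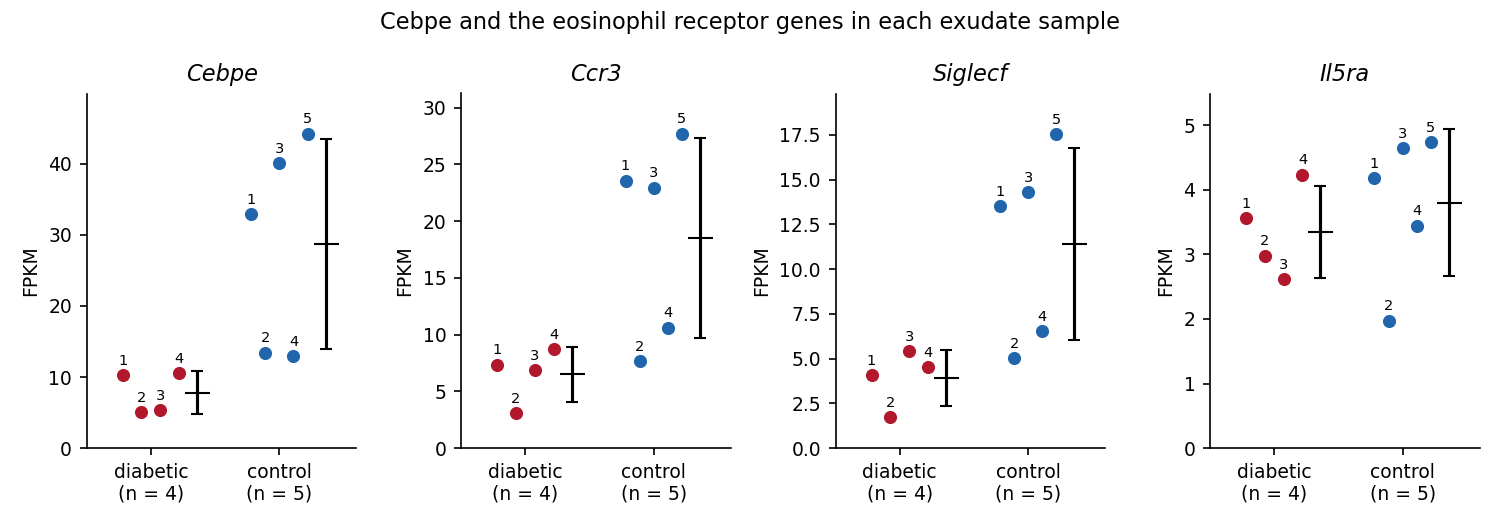
Level of Cebpe, Ccr3, Siglecf and Il5ra (y axes, FPKM, each from 0) in the 4 diabetic and 5 control samples (x axis). Points are samples with their replicate number, and bars are mean ± SD. For Cebpe, Ccr3 and Siglecf, control 1, 3 and 5 stand above the rest, while the Il5ra values of the groups overlap.

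For the 3 receptor genes and Ear6, the part of the gene just before the transcription start is shown. Ccr3 and Siglecf had log2 fold changes of -1.30 and -1.27 and Il5ra had -0.12, none of which passed. Within the control group, samples 1, 3 and 5 were the highest for all 3 receptor genes. The stretches below run from 250 bases before to 50 after the RefSeq start (GRCm38.p6). Of the 9 genes, 7 had an entry, and Cebpe and Prg2 are named only. Capitals mark matches, on either strand, to a GATA motif (AGATAA) or a C/EBP motif (TTNNGNAA). These are forms of the sites that GATA1 and C/EBP proteins are known to bind. Other forms, such as TGATAA or AGATAG for GATA, were not searched and stand unmarked where present. The stretches lie at chr9:124021721-124022020 (plus strand, Ccr3), chr7:43351091-43351390 (plus strand, Siglecf), chr6:106748988-106749287 (minus strand, Il5ra) and chr14:51853518-51853817 (plus strand, Ear6).
Ccr3: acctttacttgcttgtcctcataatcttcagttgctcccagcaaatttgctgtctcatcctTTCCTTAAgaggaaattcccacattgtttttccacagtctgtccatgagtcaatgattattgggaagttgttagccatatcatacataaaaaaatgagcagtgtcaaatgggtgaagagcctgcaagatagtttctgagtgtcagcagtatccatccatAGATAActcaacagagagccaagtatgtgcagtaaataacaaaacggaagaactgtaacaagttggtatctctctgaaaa
Siglecf: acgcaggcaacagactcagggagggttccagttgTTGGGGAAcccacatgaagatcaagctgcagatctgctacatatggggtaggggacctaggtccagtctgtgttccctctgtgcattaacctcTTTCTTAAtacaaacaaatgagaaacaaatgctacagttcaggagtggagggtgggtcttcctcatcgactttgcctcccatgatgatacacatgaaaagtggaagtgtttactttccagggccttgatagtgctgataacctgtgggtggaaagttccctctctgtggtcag
Il5ra: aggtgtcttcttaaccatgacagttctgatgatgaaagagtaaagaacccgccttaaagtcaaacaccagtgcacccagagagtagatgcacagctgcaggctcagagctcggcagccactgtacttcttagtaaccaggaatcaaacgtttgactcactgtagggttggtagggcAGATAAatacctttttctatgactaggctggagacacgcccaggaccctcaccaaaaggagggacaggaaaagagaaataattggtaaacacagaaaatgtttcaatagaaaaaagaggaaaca
Ear6: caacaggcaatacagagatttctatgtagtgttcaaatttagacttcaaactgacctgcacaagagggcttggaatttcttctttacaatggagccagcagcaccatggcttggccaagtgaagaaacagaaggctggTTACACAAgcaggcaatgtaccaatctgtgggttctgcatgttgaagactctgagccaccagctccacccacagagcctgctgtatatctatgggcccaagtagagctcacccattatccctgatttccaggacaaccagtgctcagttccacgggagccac

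Ccr3 held both motifs, the GATA letters 30 bases and the C/EBP letters 189 bases before the start. Siglecf held C/EBP letters at 216 and at 123 bases before the start and no AGATAA. The form TGATAA, which was not searched, stands unmarked in the Siglecf stretch, so the lack of AGATAA does not show that Siglecf lacks a GATA site. Il5ra held the GATA letters 74 bases before the start and no C/EBP letters in this window. Ear6 held C/EBP letters 112 bases before the start, and its close relatives Ear1 and Ear2 held them at 92 and at 90 bases. The Epx stretch held neither. The 2 motifs do not overlap in any of these stretches. Among 32851 promoters of 300 bases in the same table, 11.2% held the GATA letters and 40.7% the C/EBP letters, so a match of the second kind is common. These matches describe letters and were not tested as sites.

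Ccr3 encodes the receptor for eotaxins, the chemokines that draw eosinophils into tissue (chromosome 9, 130590727 to 130605676, plus strand). Its level was 7.35, 3.06, 6.85 and 8.72 FPKM in diabetic 1 to 4, against 23.6, 7.66, 22.9, 10.6 and 27.7 FPKM in control 1 to 5. The groups overlapped by 1 sample, since diabetic 4 stood above control 2, and the other 3 diabetic samples lay below every control sample. Ccr3 averaged 6.50 ± 2.42 FPKM in diabetic (SD, n = 4) and 18.5 ± 8.80 FPKM in control samples (SD, n = 5), a log2 fold change of -1.30 (SE 0.39, limma adjusted p = 0.090). The exact permutation p was 0.0397, and it ran between 0.0286 and 0.0635 over the alternatives. Without control 2, Ccr3 passed the test across genes (log2 fold change -1.56, adjusted p = 0.042).

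Siglecf encodes a receptor of the sialic acid binding immunoglobulin-like family that is used to recognise mouse eosinophils and that alveolar macrophages also carry (chromosome 7, 45547408 to 45555543, plus strand). It had 4.08, 1.72, 5.41 and 4.53 FPKM in diabetic 1 to 4, against 13.5, 5.04, 14.3, 6.53 and 17.6 FPKM in control 1 to 5. Control 2 was again the lowest control sample, and diabetic 3 stood above it. The means were 3.94 ± 1.57 FPKM in diabetic (SD, n = 4) and 11.4 ± 5.36 FPKM in control samples (SD, n = 5), with a log2 fold change of -1.27 (SE 0.37, limma adjusted p = 0.082). The exact permutation p was 0.0397 and ran between 0.0286 and 0.0571 over the alternatives, and Siglecf passed without control 2 (log2 fold change -1.50, adjusted p = 0.042). Of the alveolar macrophage markers, the defining genes Car4, Fabp1 and Krt79 did not exceed 0.411 FPKM in any sample. The summed level of all 8 such markers was 101 to 167 FPKM in diabetic and 121 to 166 FPKM in control samples, and 0 of the 5 tested passed. The 2 with the smallest p were Itgax (log2 fold change -0.47, adjusted p = 0.15) and Atp6v0d2 (-0.84, adjusted p = 0.22).

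Il5ra encodes the chain of the interleukin 5 receptor that binds the cytokine, and in mice it is also known from B-1 lymphocytes, which live in the peritoneal cavity (chromosome 6, 111783834 to 111823803, minus strand). Its level was 3.56, 2.98, 2.62 and 4.23 FPKM in diabetic 1 to 4, against 4.18, 1.98, 4.64, 3.45 and 4.74 FPKM in control 1 to 5. The groups overlapped, and the lowest value of all was a control sample. Il5ra averaged 3.35 ± 0.706 FPKM in diabetic (SD, n = 4) and 3.80 ± 1.14 FPKM in control samples (SD, n = 5), a log2 fold change of -0.12 (SE 0.20, limma adjusted p = 0.77, exact permutation p = 0.603). It ranged over 2.40-fold across the 9 samples, where Cebpe, Ccr3 and Siglecf ranged over 8.69-, 9.04- and 10.2-fold.

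The granule genes were read from few molecules. Prg2, which encodes major basic protein (chromosome 2, 88341024 to 88344195, plus strand), had 7, 8, 0 and 4 reads in diabetic 1 to 4, against 9, 0, 6, 2 and 21 reads in control 1 to 5. In FPKM this was 0.531, 0.647, 0 and 0.306 in diabetic samples, against 0.691, 0, 0.501, 0.170 and 1.56 in control samples (exact permutation p = 0.643). Epx, the eosinophil peroxidase gene (chromosome 11, 92218431 to 92230693, minus strand), had 1 read in diabetic 1, 3 reads in control 5 and none in the other samples (exact permutation p = 1). A count of 0 allows an Epx level of up to 0.0680 to 0.0781 FPKM at these depths, which is the worth of 3 reads and covers counting error only. Neither gene differed detectably at this depth.

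Ear6, a member of the eosinophil-associated ribonuclease family (chromosome 14, 47881130 to 47882074, plus strand), had 2, 2, 0 and 1 reads in diabetic 1 to 4, against 24, 7, 16, 0 and 24 reads in control 1 to 5. This was 0.135, 0.143, 0 and 0.0678 FPKM in diabetic samples, against 1.63, 0.503, 1.19, 0 and 1.58 FPKM in control samples. Control 1, 3 and 5 were the high samples, as for Cebpe, while control 4 had no read, so the groups overlapped (exact permutation p = 0.0714, and 0.0286 without control 4). Each diabetic value lay below the worth of 3 reads, 0.197 to 0.226 FPKM. With no minimum on expression its log2 fold change was -0.78 (limma adjusted p = 0.21). The identity of this row is uncertain. The table names it Ear6, and the protein match in the same row is to Ear2. In the GENCODE transcripts, Ear6 and Ear1 share 88.7% of aligned bases, Ear6 and Ear2 share 88.3%, and Ear1 and Ear2 share 96.1%, so reads of 1 copy may be counted with another.

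**Figure D2:**
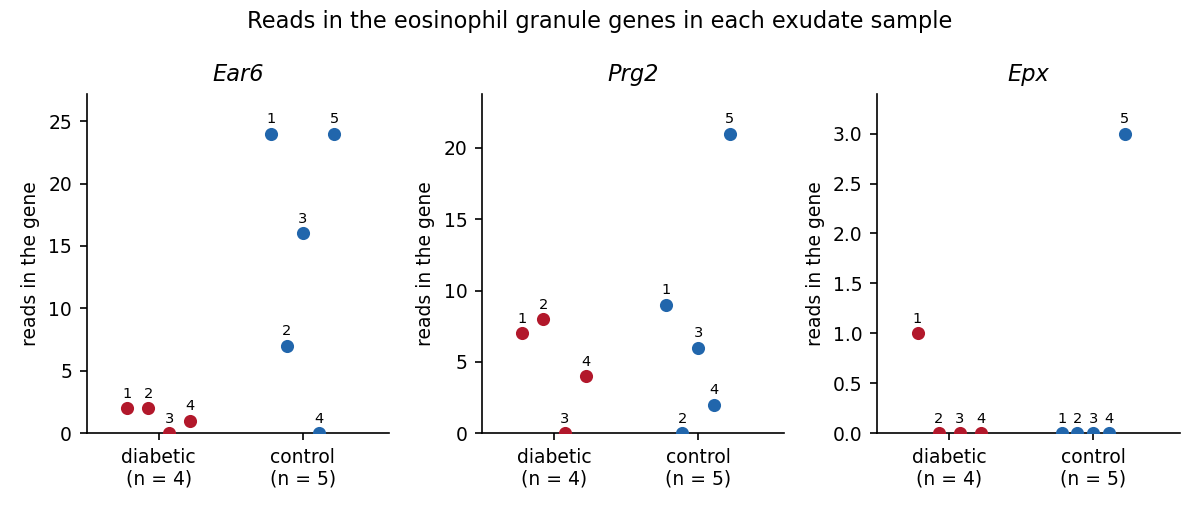
Reads counted in Ear6, Prg2 and Epx (y axes, reads, each from 0) in each diabetic and control sample (x axis, replicate numbers beside the points). Ear6 reached 24 reads in control 1 and 5 and at most 2 reads in diabetic samples, while Epx had reads in diabetic 1 and control 5 only.

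By mean level over the 9 samples the order was Cebpe (19.4 FPKM), Ccr3 (13.2), Siglecf (8.08), Il5ra (3.60), Ear6 (0.583), Prg2 (0.489) and Epx (0.0101). Cebpe lay above 92.8% of all genes in the table and Il5ra above 80.6%. Across samples the ranges of neighbours in this order overlapped, except those of Il5ra and Ear6. Within samples, Ccr3 was higher than Siglecf in all 9. Cebpe was higher than Ccr3 in 8 of 9, the exception being diabetic 3, in which the ratio of Cebpe to Ccr3 was 0.774. Siglecf was higher than Il5ra in 8 of 9, the exception being diabetic 2, in which the ratio of Il5ra to Siglecf was 1.73.

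Ratios between members within a sample do not depend on the scaling of the library, and 5 were computed. They were chosen after the values were seen, so they are described with no test. The ratio of Il5ra to Ccr3 was 0.484, 0.971, 0.382 and 0.486 in diabetic 1 to 4, against 0.177, 0.258, 0.202, 0.325 and 0.171 in control 1 to 5. Every diabetic ratio lay above every control ratio. The mean was 0.581 ± 0.265 in diabetic (SD, n = 4) and 0.227 ± 0.0646 in control samples (SD, n = 5), a log2 difference of 1.31, which ran between 1.03 and 1.48 when 1 sample was left out. The ratio of Il5ra to Siglecf was also higher in diabetic samples, with diabetic 3 below control 4, at 1.004 ± 0.521 in diabetic (SD, n = 4) and 0.365 ± 0.101 in control samples (SD, n = 5), with a log2 difference of 1.36 (1.05 to 1.66 when 1 sample was left out).

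By contrast, the ratio of Ccr3 to Siglecf was 1.69 ± 0.291 in diabetic (SD, n = 4) and 1.61 ± 0.0827 in control samples (SD, n = 5). It ranged over 1.52-fold in all 9 samples, although each gene ranged over 9.04- or 10.2-fold. Diabetic 3 had the lowest ratio (1.27), and without it the log2 difference was 0.19, against 0.052 with all samples. The ratio of Cebpe to Ccr3 was 1.26 ± 0.373 in diabetic (SD, n = 4) and 1.54 ± 0.233 in control samples (SD, n = 5). That of Cebpe to Siglecf was 2.19 ± 0.849 in diabetic (SD, n = 4) and 2.48 ± 0.313 in control samples (SD, n = 5). In these 3 ratios the groups overlapped.

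**Figure D3:**
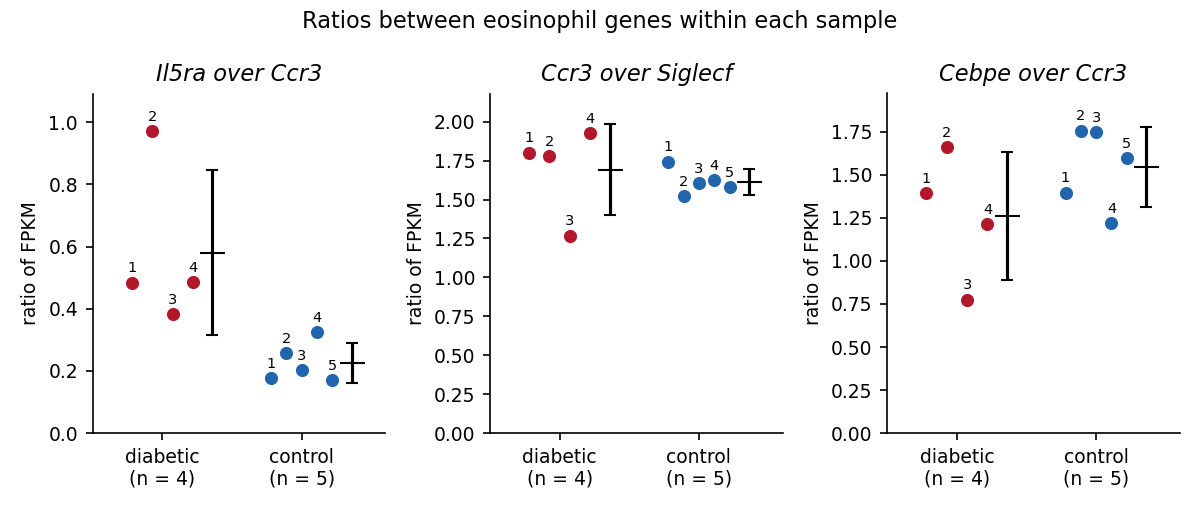
Ratio of FPKM within each sample (y axes, from 0) for Il5ra over Ccr3, Ccr3 over Siglecf and Cebpe over Ccr3 in diabetic and control samples (x axis). Points are samples with their replicate number, and bars are mean ± SD. The diabetic Il5ra over Ccr3 values (0.382 to 0.971) lie above the control values (0.171 to 0.325), while the other ratios overlap.

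The sample pattern of each gene was compared with that of all other tested genes by the mean absolute difference of log2(FPKM + 1), each gene centred on its mean over the 9 samples. This measure uses every sample and describes likeness only. It includes the difference between groups, so genes picked as close to Cebpe, Ccr3 or Siglecf are lower in diabetic samples by selection. For Cebpe, the distance to Ccr3 was 0.241 and to Siglecf 0.273, and that to Il5ra was 0.793, where the median over all genes was 0.906. Ccr3 and Siglecf were 0.104 apart. The 5 genes outside the set most like Cebpe were Rab44, a large Rab GTPase (0.243), Chst13, a chondroitin sulfotransferase (0.267), Gapt, a transmembrane adaptor that binds GRB2 (0.271), Arap3, a GTPase-activating protein (0.282), and Pglyrp1, a peptidoglycan-binding protein of granulocyte granules (0.321).

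Of these, Rab44, Chst13, Gapt and Arap3 were also among the 5 nearest to both Ccr3 and Siglecf. Among genes outside the set, Gapt was the nearest to Siglecf (0.0994) and to Ccr3 (0.176). Gapt had 18.7, 9.23, 23.4 and 20.9 FPKM in diabetic 1 to 4, against 49.6, 24.9, 65.8, 26.8 and 58.4 FPKM in control 1 to 5, and its groups did not overlap (log2 fold change -1.24, limma adjusted p = 0.075). The remaining gene near Siglecf was F5, coagulation factor V (0.227), and that near Ccr3 was Pglyrp1 (0.196). Of the 6 genes, whose direction follows from how they were picked, Arap3 alone passed the test across genes. It fell to 1.89 to 3.71 FPKM in diabetic samples, against 4.79 to 12.6 FPKM in control samples (log2 fold change -1.28, adjusted p = 0.027). The call was lost without control 1, 3 or 5 and without diabetic 1, 2 or 4 (adjusted p = 0.052 to 0.090).

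The genes nearest to Il5ra were different ones: Leng8 (0.0990), Jak3, the kinase of the common gamma chain receptors (0.0994), Fgd2 (0.108), Atp2a3, a calcium pump of the endoplasmic reticulum (0.111), and Dok3, an adaptor of immune receptors (0.112), where the median over all genes was 0.312. None of these 5 passed (adjusted p = 0.46 to 0.93). B cell markers showed part of the sample order of Il5ra within each group, and a different order between groups. The summed level of 8 B cell markers was 2602, 3098, 1520 and 3262 FPKM in diabetic 1 to 4, against 2119, 999, 2004, 1248 and 1959 FPKM in control 1 to 5. Diabetic 4 was the highest and diabetic 3 the lowest diabetic sample for both the B cell sum and Il5ra. Control 2 was the lowest control sample for both, and control 1, 3 and 5 were the high ones. Il5ra had the same control order as Siglecf (control 5, 3, 1, 4, 2). High values in control 1, 3 and 5 were thus not particular to Cebpe, Ccr3 and Siglecf. Between groups the B cell sum and Il5ra differed: the B cell sum of diabetic 1, 2 and 4 lay above every control sample. The highest Il5ra levels were those of control 5 and 3 (4.74 and 4.64 FPKM). Of these 8 markers, Ighd and Fcer2a rose (log2 fold changes 2.48 and 2.23, adjusted p = 0.011 and 0.013), where 2.68% of all tested genes rose. The part of B cells in the Il5ra level was not tested.

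**Figure D4:**
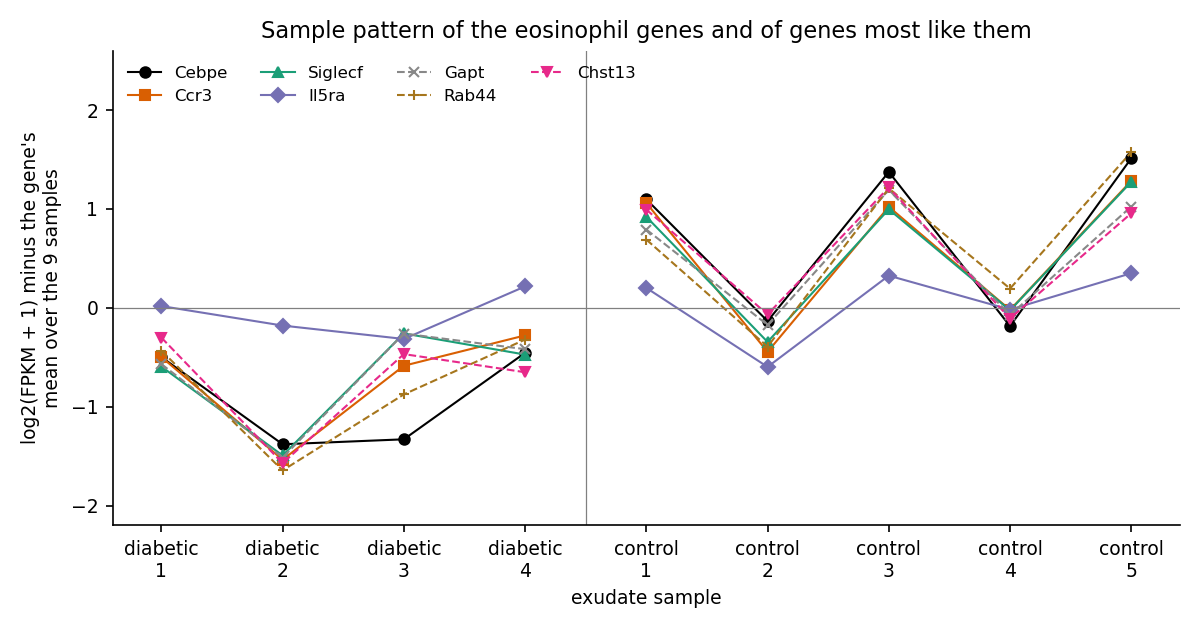
Level of each gene in each sample as log2(FPKM + 1) minus the gene's mean over the 9 samples (y axis), for diabetic and then control samples (x axis); lines only join the points of 1 gene. Cebpe, Ccr3, Siglecf, Gapt, Rab44 and Chst13 share high values in control 1, 3 and 5 and low values in diabetic 2, while Il5ra stays nearer 0.

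Other markers varied between samples along with these genes. The sum of 12 neutrophil markers was 268, 486, 388 and 634 FPKM in diabetic 1 to 4, against 672, 236, 584, 203 and 1229 FPKM in control 1 to 5. Control 1, 3 and 5 were high and control 2 and 4 low, as for Cebpe, which neutrophil precursors also use, but the diabetic sums lay within the control range. Of 9 neutrophil markers tested, 0 passed, with a median log2 fold change of -0.15. The smallest p-values were those of Prtn3 (0.72, adjusted p = 0.25) and Padi4 (-0.22, adjusted p = 0.25). Retnlg, Csf3r and Cxcr2, chosen after their values were seen, were high in control 1, 3 and 5, as Cebpe was. Retnlg had 40.8, 31.7, 40.9 and 64.0 FPKM in diabetic 1 to 4, against 118, 34.1, 150 and 37.1 FPKM in control 1 to 4 and 202 FPKM in control 5 (-0.98, adjusted p = 0.31). Csf3r had -0.58 (adjusted p = 0.39) and Cxcr2 -0.42 (adjusted p = 0.77). Other markers of this list were not lower in diabetic samples: S100a8 had a log2 fold change of 0.12, S100a9 of 0.0011 and Hp of 0.45. Of the 9 tested, 5 had a negative log2 fold change. In diabetic 4, S100a8 and S100a9 stood at 119 and 280 FPKM, above control 1 (105 and 224 FPKM) and control 3 (63.9 and 156 FPKM). Of the primary granule genes in the list, Mpo and Elane did not exceed 0.810 FPKM. Prtn3 and Ctsg, of the same granules, had 6.23 to 27.0 FPKM and 0.488 to 2.75 FPKM over the samples of both groups. The part of neutrophils in the Cebpe difference was not tested.

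The targets of C/EBP epsilon known from neutrophil secondary granules and related genes gave no call. Of 10 genes listed, 9 were in the table, 4 were tested and 0 passed in either direction, with a median log2 fold change of 0.097. Over all tested genes, 4.76% passed. The most specific of them, Ltf (lactoferrin), Camp (cathelicidin), Ngp and Itgb2l, stayed below the expression minimum, and the largest value among the 4 was 3.05 FPKM for Ngp in diabetic 2. Lcn2, a siderophore-binding granule protein, had 5.33, 10.5, 5.57 and 4.33 FPKM in diabetic 1 to 4, against 4.52, 0.570, 4.49, 2.34 and 6.06 FPKM in control 1 to 5 (log2 fold change 0.80, adjusted p = 0.29). Mmp9, the gelatinase, had 18.0, 12.8, 23.3 and 31.1 FPKM in diabetic 1 to 4, against 51.5, 13.5, 49.2, 26.3 and 74.4 FPKM in control 1 to 5 (-0.83, adjusted p = 0.31). As for Cebpe, control 1, 3 and 5 were high and control 2 and 4 low, and the groups overlapped.

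Among the other C/EBP genes, 5 were tested and 0 passed, with a median log2 fold change of -0.13. Cebpa, which acts before Cebpe in granulocyte development, averaged lower in diabetic samples and missed the threshold (log2 fold change -0.50, SE 0.15, adjusted p = 0.081), as did Cebpg (-0.20, adjusted p = 0.41). Of 13 transcription factors of the eosinophil lineage, 11 were tested and 0 passed, with a median of -0.13. The smallest p-values belonged to Id2, an inhibitor of helix-loop-helix factors (0.67, SE 0.18, adjusted p = 0.056), and Irf8 (0.35, SE 0.10, adjusted p = 0.073). Gata1, the factor that commits progenitors to the eosinophil lineage and that mast and red cell precursors also use, is given here as chosen after its values were seen. It had 1.90, 1.11, 1.003 and 2.73 FPKM in diabetic 1 to 4, against 5.60, 1.92, 5.74, 3.07 and 5.47 FPKM in control 1 to 5. Its high samples were control 1, 3 and 5 once more, with diabetic 4 above control 2 (log2 fold change -0.97, adjusted p = 0.082).

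Mast cell and red cell markers are given beside Gata1. The sum of 9 mast cell markers was 113 to 381 FPKM in diabetic and 285 to 707 FPKM in control samples. All 7 tested had a negative log2 fold change (median -0.83) and 0 passed, the nearest being the tryptases Tpsb2 (-1.62, adjusted p = 0.053) and Tpsab1 (-0.89, adjusted p = 0.078). The control order of the mast cell sum differed from that of Cebpe, with control 4 highest at 707 FPKM. The sum of the 3 erythroid markers in the table was 0.917 to 41.5 FPKM in diabetic and 6.36 to 158 FPKM in control samples, and 0 of 2 passed, Hba-a1 (-2.76, adjusted p = 0.17) and Alas2 (-0.59, adjusted p = 0.77). The part of these cells in the Gata1 values was not tested.

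The cytokines and receptors that act on eosinophils were read from a list of interleukin 5 and beta common chain signalling genes. Of 10 in the table, 7 were tested, and 0 rose and 1 fell (median log2 fold change -0.062). Of all tested genes, 2.68% rose and 2.08% fell. Csf2ra, the ligand-binding chain of the receptor for granulocyte-macrophage colony-stimulating factor, which macrophages use too, fell to 117, 76.3, 137 and 96.0 FPKM in diabetic 1 to 4, against 155, 204, 205, 174 and 184 FPKM in control 1 to 5. The groups did not overlap (log2 fold change -0.81, SE 0.17, adjusted p = 0.023). The call was lost without control 3, diabetic 2 or diabetic 4 (adjusted p = 0.063, 0.064 and 0.082). Csf2rb, the signalling chain that the interleukin 5 receptor shares with it, stood at -0.24 (adjusted p = 0.35). Il5 and Il3 had no read in any sample, which allows Il5 a level of up to 0.121 to 0.139 FPKM.

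Of 6 genes for CCR3 ligands, 4 were tested, and 1 rose and 0 fell (median log2 fold change 0.80), where 2.68% of all tested genes rose. Ccl5 rose to 106, 65.7, 105 and 82.1 FPKM in diabetic 1 to 4, against 39.3 to 59.0 FPKM in control samples (log2 fold change 0.94, SE 0.17, adjusted p = 0.017), with no overlap. CCL5 also binds other receptors, and T cells are a known source of it. The sum of 10 T cell markers was 127 to 504 FPKM in diabetic and 43.7 to 71.1 FPKM in control samples, and 10 of 10 rose (median 2.17), led by Cd3e (2.21, adjusted p = 0.0055), Thy1 (adjusted p = 0.0055), Cd3g (2.33) and Cd8b1 (3.48). Diabetic 3 had the lowest T cell sum of its group and a Ccl5 level of 105 FPKM. The sum of 7 natural killer cell markers was 43.0 to 76.4 FPKM in diabetic and 27.1 to 64.4 FPKM in control samples. Its highest value was that of diabetic 3. The part of T cells or natural killer cells in the Ccl5 rise was not tested. Ccl24, or eotaxin-2, was 18.2, 25.4, 12.3 and 28.1 FPKM in diabetic 1 to 4, against 60.6, 30.7, 51.1, 20.3 and 120 FPKM in control 1 to 5. Its high samples were control 1, 3 and 5, and control 4 lay among the diabetic values (log2 fold change -1.20, adjusted p = 0.16). Ccl7 lay the other way with the same adjusted p, at 37.6, 37.4, 39.0 and 38.7 FPKM in diabetic 1 to 4, against 34.8, 5.77, 11.1, 19.6 and 29.5 FPKM in control 1 to 5, with no overlap (1.13, adjusted p = 0.16). Ccl8 had 0.66 (adjusted p = 0.49). Ccl11, the gene for eotaxin-1, had 1 read in all 9 samples together.

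**Figure D5:**
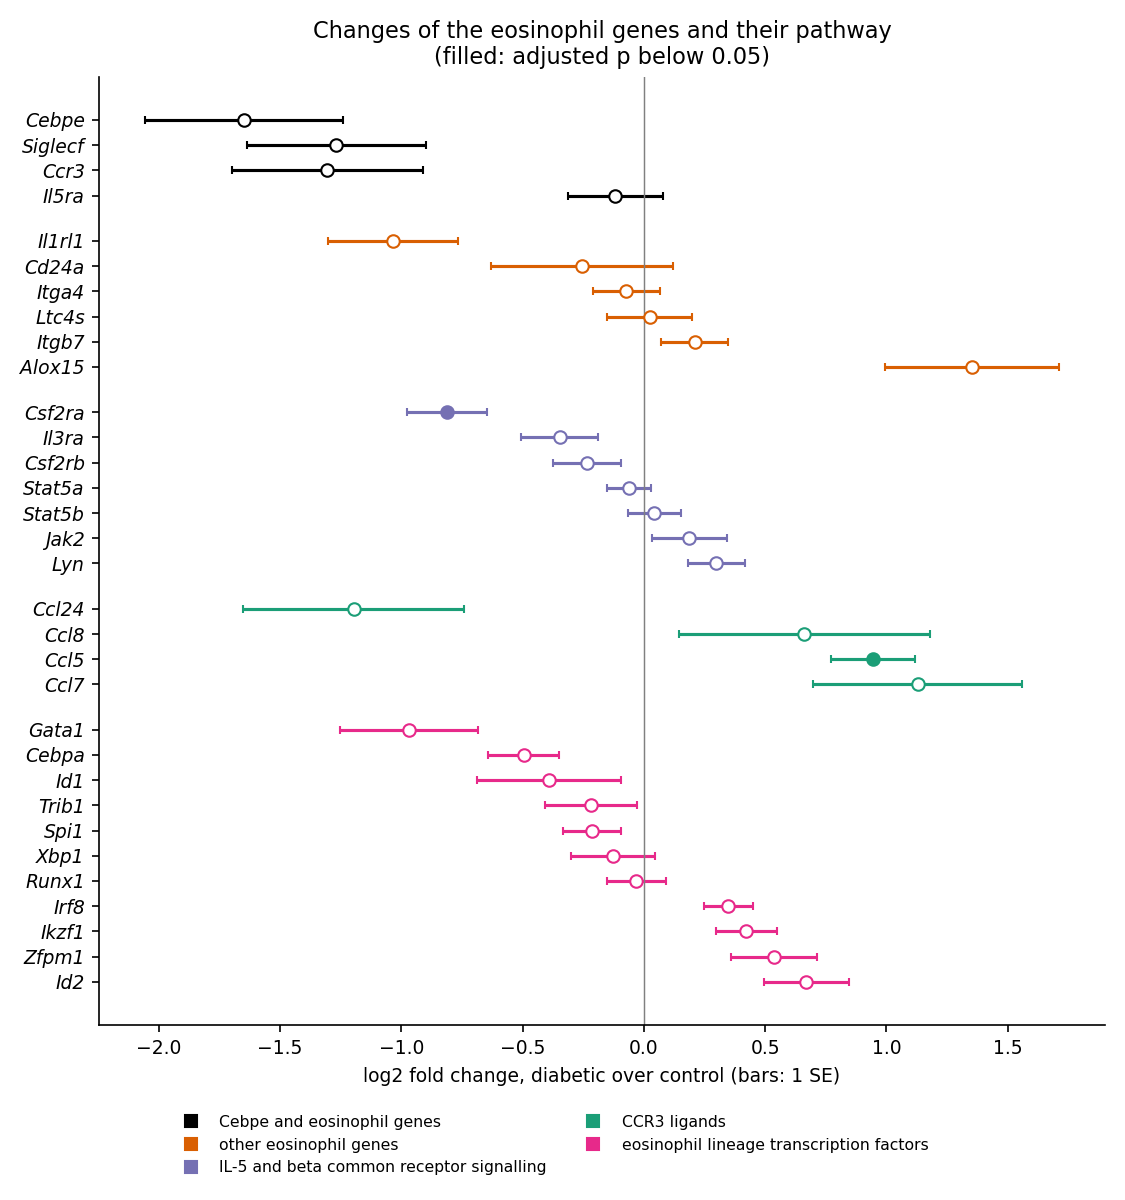
Log2 fold change, diabetic over control, of log2(FPKM + 1) (x axis) for the 4 tested eosinophil genes and the tested genes of 4 lists (y axis); bars are 1 SE and filled points have an adjusted p below 0.05. Cebpe, Ccr3 and Siglecf lie between -1.65 and -1.27 and Il5ra near 0, and Csf2ra and Ccl5 are the filled points.

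Other eosinophil genes did not share 1 direction. Of 14 listed, 10 were in the table, 6 were tested and 0 passed, with a median log2 fold change of -0.025. Il1rl1, the interleukin 33 receptor of eosinophils, mast cells and type 2 lymphocytes, had 4.40, 1.70, 3.13 and 3.97 FPKM in diabetic 1 to 4, against 9.30, 3.84, 7.83, 8.04 and 10.4 FPKM in control 1 to 5 (-1.04, SE 0.27, adjusted p = 0.056), and the part of mast cells in these values was not tested. Alox15, the 12/15-lipoxygenase of eosinophils and resident peritoneal macrophages, lay the other way, at 110, 74.4, 34.0 and 39.0 FPKM in diabetic samples, against 18.2, 13.5, 33.0, 26.0 and 23.7 FPKM in control samples (1.35, SE 0.36, adjusted p = 0.062). The sum of 10 markers of large peritoneal macrophages, Alox15 among them, was 177 to 333 FPKM in diabetic and 128 to 165 FPKM in control samples. Of 9 tested, 1 rose, where 2.68% of all tested genes did. It was the row matched to Naip1 by its protein (0.56, adjusted p = 0.047), a call lost in 9 of 17 alternatives. The part of these cells in the Alox15 values was not tested. Ear14 was at 0 in every sample.

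Few genes of the families to which the members belong and of the type 2 cytokine list were tested. Rnase6 alone passed among them, where 4.76% of all tested genes did. Of 7 other Siglec genes, 6 were tested and 0 passed (median log2 fold change 0.041), with Mag, or Siglec-4, at -0.41 (adjusted p = 0.093) and the B cell receptor gene Cd22 at 0.51 (adjusted p = 0.27). Of 7 other genes of the ribonuclease A family in the table, 3 were tested, and 1 rose and 0 fell (median 0.33). Rnase6 rose to 61.6, 53.2, 78.2 and 73.6 FPKM in diabetic 1 to 4, against 41.4, 39.7, 41.6, 42.0 and 46.9 FPKM in control 1 to 5 (0.63, SE 0.12, adjusted p = 0.019). That call was lost without control 3 or diabetic 4 (adjusted p = 0.052 and 0.073). Of 7 type 2 cytokine and receptor genes, 3 were tested and 0 passed (median 0.18). Il4ra had a log2 fold change of 0.34 (adjusted p = 0.16), and Il4, whose reads an eosinophil, a mast cell or a T cell can give, had -0.54 (adjusted p = 0.18).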

How the data were processed

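The authors deposited 1 table of FPKM values for 41096 genes in 9 samples, with gene length, position, strand and biotype, per the file headers. RNA libraries were made with a SMARTER kit, per the labels' protocols. Sample columns were matched by title. Each value times the gene length was a whole multiple of the worth of 1 read (within 0.05), which gave the reads. No source used here names the aligner, the counter, its use of strand or the build of the positions. GRCm38 and mm10 stand in the submitters' processing notes, but 0 of 29735 shared gene names had the start of a GENCODE GRCm38 annotation. PCR copies cannot be told from molecules.

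Genes with at least 1 FPKM in at least 4 samples were fitted as log2(FPKM + 1) with limma 3.58.1 in R 4.3.3 (lmFit, eBayes with trend and robust moderation, group only), two-sided, with Benjamini-Hochberg adjustment over all 11193 genes. This scale understates the change of low genes. The fit was tested on simulated data. Exact permutation tests, ratios and motif searches were run in Python 3.11.15. The members and the gene lists were chosen with earlier results of these data known. The members are named first, then from each list up to 4 genes that passed, ranked by p, or 2 that came nearest, as values, and the 5 genes most like each tested member, without predicted genes, pseudogenes or antigen receptor segments. Genes named outside this rule were chosen after their values were seen, among them single values quoted from a list, such as those of Adgre1, Cd68, Ltf or Ccl24. Alternatives were other pseudocounts, filters, scalings, moderation, sample weights, a replicate block and each sample left out. The result of 1 marker list is not reported here.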

Additional observations from a re-analysis of the deposited data

Results flagged for a closer look

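Epx, the eosinophil peroxidase gene, stood apart in 1 sample of each group. It was at 0.0232 FPKM in diabetic 1, where the other 3 diabetic samples had no read, and at 0.0680 FPKM in control 5, where the other 4 control samples had none. These levels are 1 read and 3 reads. Where a single sample of a group has reads, that sample always stands apart by the whole range of the group, however few the reads.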

How the results depend on the processing

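The log2 fold changes of Cebpe (-1.88 to -1.45 over 18 alternatives, adjusted p 0.019 to 0.15), Ccr3 (-1.56 to -1.03, 0.024 to 0.23) and Siglecf (-1.53 to -1.01, 0.017 to 0.21) stayed negative in each alternative run, as did that of Il5ra (-0.28 to -0.034 over 17, 0.29 to 0.93), which had no value under the stricter filter. The number of these genes that passed, 0, became 1 (Cebpe) without trend or robust moderation, 3 with sample weights, and 0 to 3 when 1 sample was left out. Over all genes, 533 passed, against 183 with no filter, 1304 with sample weights and 115 to 1126 when 1 sample was left out. With 1 sample left out, the log2 difference of Prg2 ran from -0.30 to 0.037 and that of Epx from -0.019 to 0.0083, both reversed without control 5. The log2 ratio difference of Ccr3 over Siglecf ran from -0.016 (without diabetic 4) to 0.19, and that of Cebpe over Siglecf from -0.46 to 0.069 (without diabetic 3). The cause was not tested. With a replicate block, in which control 5 has no partner, 62 genes and 0 of the 4 passed (Cebpe -1.45, adjusted p = 0.13), and the calls of Csf2ra, Ccl5, Rnase6, Arap3, Cd3e, Thy1, Cd3g, Cd8b1, Ighd, Fcer2a, Ccr7, Batf3, Mrc1 and Naip1 were lost (adjusted p 0.062 to 0.15), while Klrd1 passed (0.048). With no filter, Csf2ra, Rnase6, Arap3, Batf3, Mrc1 and Naip1 missed the threshold (0.050 to 0.099). The pairing rests on numbers alone: deviations of samples with the same number correlated at 0.023, 0.16, -0.26 and -0.18, and diabetic 2 alone correlated best with its own number. Few reads limit Prg2, Epx and Ear6.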

Other observations

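Other cell type markers give the setting of the eosinophil genes. Beside the counts below, 2.68% of all tested genes rose and 2.08% fell. Of 8 general macrophage markers tested, Mrc1, the mannose receptor gene, fell (log2 fold change -1.13, adjusted p = 0.033) and 0 rose, with a sum over 9 markers of 2484 to 4085 FPKM in diabetic and 3130 to 5185 FPKM in control samples. The call was lost in 10 of 18 alternatives. Of 7 nonclassical monocyte markers 0 passed (median -0.42), and their sum was 310 to 397 FPKM in diabetic and 431 to 519 FPKM in control samples. Pglyrp1 (-1.02, adjusted p = 0.13) and Cd36 (-0.42, adjusted p = 0.16) had the smallest p-values there. Pglyrp1, whose protein is also found in granulocyte granules, is among the genes named above as most like Cebpe and Ccr3. Of 7 natural killer cell markers, Klrd1 rose (1.13, adjusted p = 0.013). Of 8 dendritic cell markers, 4 were tested. Ccr7 rose (1.95, adjusted p = 0.0063) and Batf3 fell (-1.14, adjusted p = 0.025), the second lost in 8 of 18 alternatives. Ccr7 had 139, 163, 63.0 and 175 FPKM in diabetic 1 to 4. Diabetic 3 was the lowest diabetic sample for both Ccr7 and the T cell sum. The part of T cells in the Ccr7 rise was not tested.

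Of 7 mesothelial and fibroblast markers 0 passed, with Upk1b at 0.59 (adjusted p = 0.11) and Msln at 0.37 (adjusted p = 0.20). Basophils share granule genes with eosinophils and mast cells. Of 6 basophil markers, 2 were tested and 0 passed, Prss34 at -1.09 (adjusted p = 0.10) and Fcer1a at -0.075 (adjusted p = 0.90), and their sum was 7.56 to 18.0 FPKM in diabetic and 10.7 to 23.7 FPKM in control samples.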
